A study of Oryza sativa with 18 samples.

Results

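Heat shock protein chaperones were represented by 34 rice loci, which is 34 of the 47919 coding genes in the count table of young panicles of Wuxiang S (WXS). The loci were chosen as a list of identifiers by chaperone class. The rule used no measured value, but the list was chosen with earlier results of these data known. The list holds 8 HSP70 genes, 4 BiP genes, 6 HSP90 genes, 1 HSP101 gene (LOC_Os05g44340) and 15 small HSP genes. All 34 were found in the table, and each is given by its locus identifier, because the tables carry no gene names.

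WXS is a photo-thermosensitive genic male sterile (PTGMS) line, which sets pollen or not depending on day length and temperature. The 3 groups FP2, FP3 and FP4 (WXS (F), male fertile) came from plants that had been moved, while their panicles were still short, into a climate incubator with 12 h of light and a daily mean of about 21 °C. The 3 groups SP2, SP3 and SP4 (WXS (S), male sterile) came from plants left in the summer field, where the daily mean was above 24 °C and the days were longer than 12 h. P2 is pollen mother cell formation, P3 is meiosis and P4 is microspore formation, with 3 libraries for each of the 6 groups. All plants carry the same WXS genotype. Temperature, day length and the move from field to incubator differ together between the conditions and cannot be told apart. The moved plants stayed in the incubator for weeks, and harvest dates are not given. Time since the move and the date in the season may therefore differ between stages, and cannot be told apart from stage. The hour and the temperature at harvest are not given in the sources used here.

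Chaperones bind unfolded proteins and help them to fold or keep them from clumping. HSP70 and HSP90 proteins use ATP to fold client proteins, BiP is the HSP70 of the endoplasmic reticulum, HSP101 pulls proteins out of aggregates, and small HSPs hold unfolding proteins without using ATP. In plants many of these genes are switched on by heat shock factors when temperature climbs, while others are expressed constantly, and some small HSPs and HSP101 are also made during anther and seed development without stress.

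Coding-gene counts summed to between 30577833 and 52222861 per library, of which the 34 loci took between 0.553% and 0.972%. Levels are given as CPM, which are counts scaled to library size with TMM factors over the 18 libraries. A count of 0 allows up to 3 counts, which were worth between 0.0609 and 0.0953 CPM. Counting limits cover counting error only. Fold changes are log2 values of WXS (F) over WXS (S), with approximate standard errors (SE). A gene was called where its adjusted P was below 0.05 and its log2(fold change) was 1 or more, or −1 or less, in edgeR's quasi-likelihood test over all coding genes with at least 10 counts in 3 libraries. The study describes the 3 libraries of each group as biological replicates, but the labels do not say which plants each library came from, and P values measure the spread between these libraries. In whole panicles, fewer cells of a type and less RNA per cell cannot be told apart.

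Lists of marker loci, drawn up from general knowledge and not annotated in the tables, described the makeup of the panicles. The 5 anther and tapetum loci summed to 8.88–11.6 CPM in FP2 and 9.66–11.8 CPM in SP2, with 1 of the 5 at 0 in some libraries. They summed to 94.7–101 CPM in FP3 against 56.8–79.2 CPM in SP3, and to 1227–1324 CPM in FP4 against 127–143 CPM in SP4. The loci behind these sums did not move together, since 2 of the 5 were called higher and 2 lower in FP3, and 2 higher and 1 lower in FP4. The 1 germ cell locus had 112–115 CPM in FP2 and 207–225 CPM in SP2, 109–116 CPM in FP3 and 255–257 CPM in SP3, and 27.4–32 CPM in FP4 and 129–134 CPM in SP4. The 5 floral organ loci summed to 147–160 CPM in FP2 and 209–262 CPM in SP2, to 212–222 CPM in FP3 and 340–477 CPM in SP3, and to 479–500 CPM in FP4 and 538–565 CPM in SP4. The 3 loci of photosynthetic tissue summed to 8.49–8.69 CPM in FP2 and 16.1–24.1 CPM in SP2, to 11.9–13.3 CPM in FP3 and 28.0–34.8 CPM in SP3, and to 62.6–69.0 CPM in FP4 and 67.3–81.1 CPM in SP4. The germ cell locus and the floral organ sums were thus lower in WXS (F) at all 3 stages. The anther and tapetum sums overlapped at P2, and the photosynthetic sums overlapped at P4. The part of these differences in the chaperone results was not tested.

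Summed over the class, the small HSPs were lower in fertile panicles at P2 and higher at P3 and P4. Of the summed class levels theirs differed by the largest ratio at each stage. Their summed level was 161.7 ± 1.97 CPM in FP2 against 651.6 ± 70.0 CPM in SP2 (SD, n = 3 each). At P3 it was 439.3 ± 9.67 CPM in FP3 against 59.4 ± 6.98 CPM in SP3, and at P4 381.4 ± 20.3 CPM in FP4 against 167.6 ± 5.93 CPM in SP4. The libraries of the 2 conditions did not overlap at any stage. A few genes made up much of these sums. LOC_Os02g54140 and LOC_Os02g52150 had means of 325.5 and 213.2 CPM in SP2, and of 213 and 117.3 CPM in FP3. LOC_Os01g04350 had a mean of 151.5 CPM in FP4 against 40.5 CPM in SP4. The HSP101 gene had the same order as the small HSP sum at P2 and P3. It had 96.4 ± 6.63 CPM in FP2 against 327 ± 25.5 CPM in SP2, and 203 ± 12.1 CPM in FP3 against 87.9 ± 12.1 CPM in SP3. Its groups overlapped at P4, with 108.5 ± 3.70 CPM in FP4 and 106.4 ± 5.69 CPM in SP4.

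The HSP90 genes together gave 929.7 ± 209 CPM in FP2 against 1734 ± 125 CPM in SP2, 1539 ± 126 CPM in FP3 against 1115 ± 218 CPM in SP3, and 1225 ± 4.04 CPM in FP4 against 1107 ± 43.4 CPM in SP4. These sums include LOC_Os08g39140 and LOC_Os09g30412, with means of 173.7 and 181 CPM in FP2 and of 195.3 and 275.4 CPM in SP2. Replicates of both genes disagreed at P2 and P3, as given below, so the HSP90 sums at these stages are uncertain to that extent. The BiP genes together overlapped at P2, with 171.7 ± 2.19 CPM in FP2 and 160.4 ± 26.0 CPM in SP2. They were higher without overlap in FP3, at 398.9 ± 1.72 CPM against 143.2 ± 50.3 CPM in SP3. In FP4 they were also higher without overlap, at 367.7 ± 14.9 CPM against 249.5 ± 30.9 CPM in SP4. Nearly all of these BiP sums came from LOC_Os02g02410, with a mean of 361.7 CPM in FP4 and 249.4 CPM in SP4. It was not called at P4, where its log2(fold change) was 0.55 ± 0.09 (SE, adjusted P = 0.00291). The HSP70 genes together gave 4751 ± 25.8 CPM in FP2 and 5913 ± 462 CPM in SP2, 6829 ± 591 CPM in FP3 and 4816 ± 420.3 CPM in SP3, and 5500.0 ± 407 CPM in FP4 and 4111 ± 82.8 CPM in SP4. A single HSP70 gene, LOC_Os11g47760, made up between 66.9% and 94.2% of that sum.

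**Figure D1:**
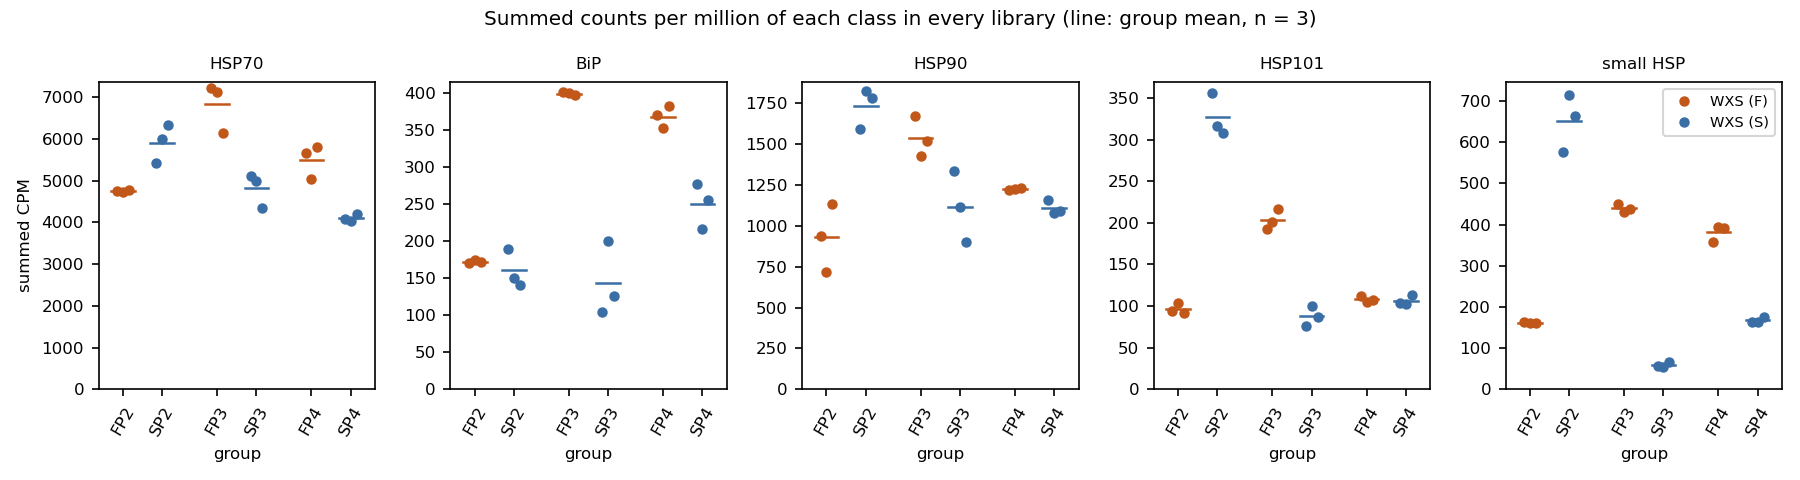
Summed CPM (vertical axes, each starting at 0) of the HSP70, BiP, HSP90, HSP101 and small HSP genes in each of the 18 libraries, by group (horizontal axes), with WXS (F) in orange and WXS (S) in blue; points are libraries and lines are group means of 3 libraries. The small HSP sum lies at 161.7 CPM in FP2 and 651.6 CPM in SP2, and at 439.3 CPM in FP3 and 59.4 CPM in SP3.

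At the P2 stage, nearly all heat shock protein genes that were called were lower in the fertile panicles, and 18 of the 29 tested were not called. Of the 34 loci, 29 had enough counts to be tested in FP2 against SP2. Among them 10 were downregulated in FP2, where 7.76% of all tested genes were called lower, and 1 was upregulated, where 10.3% of all tested genes were called higher. The 10 comprised 6 of 14 tested small HSPs, 2 of 6 HSP90 genes, the HSP101 gene and 1 of 7 tested HSP70 genes. The median log2(fold change) of the 29 was −0.65, beside 0.04 for all tested genes. All 3 FP2 libraries lay below all 3 SP2 libraries for 16 of the 29 (26.5% of all tested genes) and above them for 3 (29.1% of all tested genes).

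LOC_Os02g52150, a small HSP gene, had 33.5, 34.2 and 33.4 CPM in FP2, against 190.4, 232 and 217 CPM in SP2. The FP2 libraries were nearly level and far below the lowest SP2 library, and the log2(fold change) was −2.65 ± 0.09 (SE, adjusted P = 1.55e-05). LOC_Os02g54140, the small HSP gene with the highest counts, had 95.3, 87.1 and 90.2 CPM in FP2, against 272, 362 and 343 CPM in SP2. Here too the groups did not overlap, with a log2(fold change) of −1.83 ± 0.12 (adjusted P = 0.000118). LOC_Os03g14180 had 2.04, 1.24 and 2.14 CPM in FP2, against 21.0, 21.5 and 20.8 CPM in SP2, and showed the lowest log2(fold change) of the 34 loci at this stage, −3.53 ± 0.22 (adjusted P = 0.000116). The remaining small HSPs that fell were LOC_Os06g14240 (−3.43 ± 0.28), LOC_Os01g08860 (−2.81 ± 0.20) and LOC_Os04g36750 (−2.40 ± 0.29). The other 8 tested small HSPs, all of them within the identifier runs LOC_Os01g04350 to LOC_Os01g04380 and LOC_Os03g15960 to LOC_Os03g16040, had values between −0.74 and 0.89 and were not called.

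Among the HSP90 genes, LOC_Os04g01740 had 24.7, 25.0 and 22.7 CPM in FP2, against 163, 230.4 and 226 CPM in SP2. All FP2 libraries were far lower, with a log2(fold change) of −3.08 ± 0.15 (adjusted P = 4.96e-05). LOC_Os12g32986 had 127, 126 and 128 CPM in FP2, against 408, 349 and 362 CPM in SP2, with no overlap and a log2(fold change) of −1.54 ± 0.08 (adjusted P = 6.07e-05). LOC_Os06g50300, the HSP90 gene with the highest level per length, had 358, 339 and 348 CPM in FP2, against 521, 560.5 and 576 CPM in SP2. Its groups did not overlap, but the log2(fold change) of −0.65 ± 0.06 (adjusted P = 0.000622) stayed within the fold threshold.

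The HSP101 gene LOC_Os05g44340 had 94.1, 104 and 91.3 CPM in FP2, against 356, 317 and 308 CPM in SP2. The highest FP2 library was far under the lowest SP2 library, and the log2(fold change) was −1.75 ± 0.09 (adjusted P = 5.91e-05). HSP70 genes differed in both directions. LOC_Os05g38530 had 65.5, 70.8 and 63.4 CPM in FP2, against 145, 158 and 151 CPM in SP2, and fell by 1.18 on the log2 scale (SE 0.07, adjusted P = 9.39e-05). LOC_Os03g60620 was the only one of the 34 loci upregulated at P2, with 205, 201 and 188 CPM in FP2, against 48.0, 47.9 and 43.9 CPM in SP2. Its log2(fold change) was 2.10 ± 0.07 (adjusted P = 1.69e-05), and FP2 held the highest level of this gene in any group.

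At the P3 stage, all heat shock protein genes that were called were higher in the fertile panicles. Of 32 tested loci, 19 were upregulated in FP3, where 14.9% of all tested genes were called higher and 21.6% were called in either direction. None was downregulated by edgeR, by DESeq2 or at an unadjusted P below 0.05 (0 of 32 each), where 6.65% of all tested genes were called lower. The 19 comprised 11 of 14 tested small HSPs, 4 of 8 HSP70 genes, 2 of 3 tested BiP genes, 1 of 6 HSP90 genes and the HSP101 gene. LOC_Os01g04380, LOC_Os03g16030, LOC_Os08g09770 and the uncalled LOC_Os05g35400 had fewer than 10 counts in every SP3 library. They passed the count filter only through FP3, so they could not have been called lower. The same holds for LOC_Os04g36750, whose 25 counts over the SP3 libraries cannot give 10 in each of them. The median log2(fold change) of all 32 was 2.38, beside 0.04 for all tested genes. For 26 of the 32, all FP3 libraries lay above all SP3 libraries (31.5% of all tested genes), and 0 lay wholly below (25.5%).

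LOC_Os04g01740 (HSP90) had 95.3, 91.8 and 95.1 CPM in FP3, against 4.83, 5.34 and 6.05 CPM in SP3. The FP3 mean was 17.4 times that of SP3, with a log2(fold change) of 4.12 ± 0.11 (adjusted P = 7.87e-06). LOC_Os02g52150 had 119, 115 and 118 CPM in FP3, against 8.72, 6.99 and 9.79 CPM in SP3. LOC_Os02g54140 had 219.6, 208 and 212 CPM in FP3, against 27.6, 23.1 and 29.7 CPM in SP3. Both small HSP genes were thus far higher in every FP3 library, by log2(fold changes) of 3.78 ± 0.14 (adjusted P = 1.63e-05) and 2.98 ± 0.11 (adjusted P = 1.76e-05). LOC_Os01g08860 followed them, with 32.3, 29.3 and 34 CPM in FP3, against 2.48, 2.99 and 2.46 CPM in SP3 and a log2(fold change) of 3.59 ± 0.14 (adjusted P = 1.86e-05).

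The other 8 small HSPs called at P3 had log2(fold changes) between 2.84 (LOC_Os06g14240) and 5.31 (LOC_Os01g04380, with 4.63, 3.94 and 4.03 CPM in FP3, against 0.041, 0.127 and 0.147 CPM in SP3). The 3 tested small HSPs that were not called were LOC_Os01g04350 (0.84 ± 0.24, adjusted P = 0.0286), LOC_Os03g16040 (0.11 ± 0.45) and LOC_Os03g15960 (−1.21 ± 0.62, adjusted P = 0.164). Without the library SP3-3, LOC_Os01g04350 (1.01) and LOC_Os03g15960 (−1.66) passed the threshold. The HSP101 gene had 193, 201 and 216 CPM in FP3, against 76.1, 100.2 and 87.2 CPM in SP3, with no overlap and a log2(fold change) of 1.21 ± 0.12 (adjusted P = 0.000497).

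Of the HSP70 genes, LOC_Os03g16860 had 305, 302 and 301 CPM in FP3, against 33.5, 31.9 and 31.8 CPM in SP3. Replicates agreed closely in both groups, and the log2(fold change) was 3.22 ± 0.07 (adjusted P = 5.39e-06). LOC_Os01g62290 had 406, 379 and 391 CPM in FP3, against 109, 98.1 and 102 CPM in SP3, with a log2(fold change) of 1.92 ± 0.08 (adjusted P = 2.34e-05). LOC_Os05g38530, which was lower in FP2, had 177, 169.6 and 173 CPM in FP3, against 42.7, 54.3 and 48.1 CPM in SP3, and rose by a log2(fold change) of 1.84 ± 0.10 (adjusted P = 6.71e-05). LOC_Os03g16920 rose by 3.76 ± 0.24 at a low level, with 5.99, 7.11 and 6.64 CPM in FP3, against 0.369, 0.508 and 0.567 CPM in SP3.

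The BiP gene with the highest level, LOC_Os02g02410, had 399, 398 and 396 CPM in FP3, against 104, 199.5 and 125 CPM in SP3. SP3 replicates were spread, but all lay below FP3, with a log2(fold change) of 1.47 ± 0.24 (adjusted P = 0.00344). LOC_Os08g09770 gave 76 counts in the FP3 libraries together, against 3 counts in the SP3 libraries, a ratio of 23.7 with a 95% counting interval of 7.80 to 117. Its adjusted P of 0.0184 was the weakest of the 19 calls. It was lost at the stricter adjusted P below 0.01, and its adjusted P was 0.0521 in a fit blocked on the replicate number. LOC_Os05g35400 had 0.548, 0.656 and 0.310 CPM in FP3, against 0, 0.222 and 0 CPM in SP3, and its log2(fold change) of 2.96 ± 1.24 was not called (adjusted P = 0.0997) unless SP3-2, the only SP3 library with counts, was left out (adjusted P = 0.00514).

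**Figure D2:**
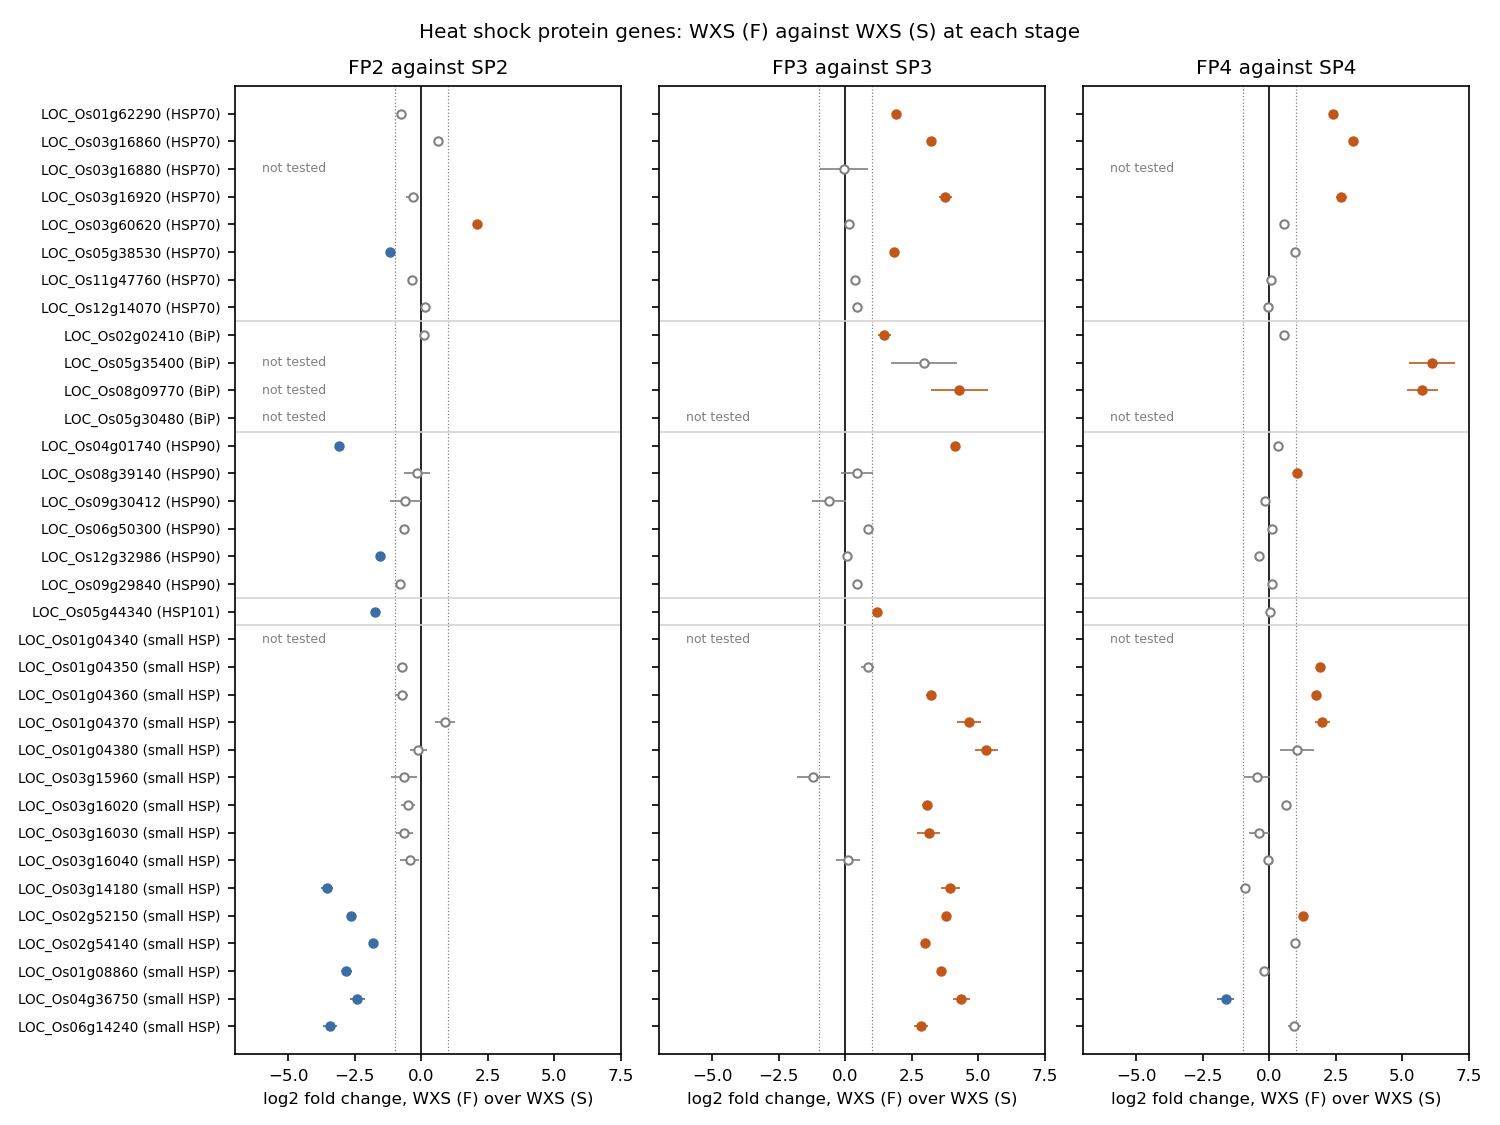
Log2(fold change) of WXS (F) over WXS (S) (horizontal axes, bars ± SE) for each of the 34 loci (rows, by class) at P2, P3 and P4 (panels, left to right); filled orange points were called higher, filled blue points called lower, open points were tested and not called, and dotted lines mark a log2(fold change) of −1 and 1. At P2 10 loci are called lower and 1 higher, at P3 19 are called higher, and at P4 10 are called higher and 1 lower.

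At the P4 stage fewer heat shock protein genes were called than at P3, and nearly all that were called were higher in fertile panicles. Of 31 tested loci, 10 were upregulated in FP4, where 15.7% of all tested genes were called higher, and 1 was downregulated, where 6.78% were called lower and 22.5% in either direction. The 10 were 4 of 14 tested small HSPs, 3 of 7 tested HSP70 genes, 2 of 3 tested BiP genes and 1 of 6 HSP90 genes. The BiP genes called, LOC_Os05g35400 and LOC_Os08g09770, had fewer than 10 counts in every SP4 library. They passed the count filter only through FP4, so they could not have been called lower. The median log2(fold change) was 0.56, beside 0.00 for all tested genes. All FP4 libraries lay above all SP4 libraries for 18 of the 31 (32.5% of all tested genes) and below them for 3 (30.2%). The summed levels of the anther and tapetum loci and of the floral organ loci and the level of the germ cell locus, given above, also differed without overlap at this stage, and their part in these calls was not tested.

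LOC_Os03g16860 had 611, 639 and 644 CPM in FP4, against 71.9, 70.5 and 75.0 CPM in SP4, a ratio of the means of 8.71 and a log2(fold change) of 3.13 ± 0.04 (adjusted P = 2.61e-07). LOC_Os01g62290 had 669, 664 and 686 CPM in FP4, against 127, 124 and 136 CPM in SP4, with a log2(fold change) of 2.40 ± 0.05 (adjusted P = 5.74e-07). LOC_Os03g16920 had 10.3, 10.2 and 10.6 CPM in FP4, against 1.54, 1.2 and 2.0 CPM in SP4, with a log2(fold change) of 2.72 ± 0.20 (adjusted P = 7.70e-05). These HSP70 genes were called at P3 as well, and each had its highest group mean in FP4.

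LOC_Os05g35400 and LOC_Os08g09770, listed as BiP genes, were near 0 in all libraries of WXS (S). LOC_Os05g35400 had 3.31, 3.23 and 3.65 CPM in FP4, against 0, 0.143 and 0 CPM in SP4, from 437 counts in FP4 and 5 counts in SP4, a ratio of 75.4 with a 95% counting interval of 32.1 to 233. LOC_Os08g09770 had 2.34, 2.16 and 3.22 CPM in FP4, against 0.057, 0 and 0.0731 CPM in SP4, from 332 and 5 counts, a ratio of 57.3 with an interval of 24.3 to 178. Their adjusted P values were 0.00135 and 0.000339. Neither passed the count filter at P2, where LOC_Os05g35400 had 18 counts in FP2 and 12 in SP2, and LOC_Os08g09770 had 0 counts in FP2 and 5 in SP2.

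Among small HSPs at P4, LOC_Os01g04350 had 146, 156 and 152 CPM in FP4, against 39.1, 38.6 and 43.7 CPM in SP4, with a log2(fold change) of 1.91 ± 0.06 (adjusted P = 2.38e-06). This gene was far higher at P4 than at the earlier stages in both conditions. LOC_Os01g04360 had 7.40, 9.0 and 9.5 CPM in FP4, against 2.34, 2.70 and 2.66 CPM in SP4, with a log2(fold change) of 1.76 ± 0.15 (adjusted P = 0.000137). LOC_Os02g52150 had 59.6, 66.9 and 66.4 CPM in FP4, against 27.2, 26.4 and 28.0 CPM in SP4, with a log2(fold change) of 1.25 ± 0.06 (adjusted P = 1.36e-05). LOC_Os01g04370, the remaining small HSP called higher, had a log2(fold change) of 2.0 ± 0.27.

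LOC_Os04g36750 was the only locus of the 34 called lower at P4 with TMM factors. It had 0.321, 0.500 and 0.408 CPM in FP4, against 1.42, 0.918 and 1.54 CPM in SP4, a log2(fold change) of −1.64 ± 0.32 (adjusted P = 0.0056). LOC_Os03g14180 had 1.31, 1.36 and 1.66 CPM in FP4, against 2.79, 2.72 and 2.66 CPM in SP4, without overlap, and its log2(fold change) of −0.91 (adjusted P = 0.00551) passed the fold threshold without TMM factors (−1.01). LOC_Os02g54140 had 101, 115 and 115 CPM in FP4, against 53.7, 56.4 and 60.7 CPM in SP4. Its groups did not overlap, but its log2(fold change) of 0.96 ± 0.07 (adjusted P = 7.45e-05) was just within the fold threshold, as was that of LOC_Os05g38530, 0.98 ± 0.14. LOC_Os02g54140 passed it without SP4-3 (1.01) or without FP4-1 (1.04), and LOC_Os05g38530 passed it without any single one of SP4-1, SP4-3, FP4-1 and FP4-2 (1.01–1.07). LOC_Os06g14240 had 2.07, 2.43 and 2.47 CPM in FP4, against 0.912, 1.52 and 1.22 CPM in SP4, and its log2(fold change) of 0.94 passed the threshold without SP4-2 (1.12) or without FP4-1 (1.04). The HSP101 gene had 112, 105 and 108 CPM in FP4 and 104, 102 and 113 CPM in SP4, overlapping groups with a log2(fold change) of 0.04 ± 0.05 (adjusted P = 0.58). The HSP90 gene LOC_Os04g01740, which differed strongly at P2 and P3, had 29.9, 29.4 and 31.5 CPM in FP4, against 24.5, 23.5 and 24.6 CPM in SP4, a log2(fold change) of 0.33 ± 0.06.

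**Figure D3:**
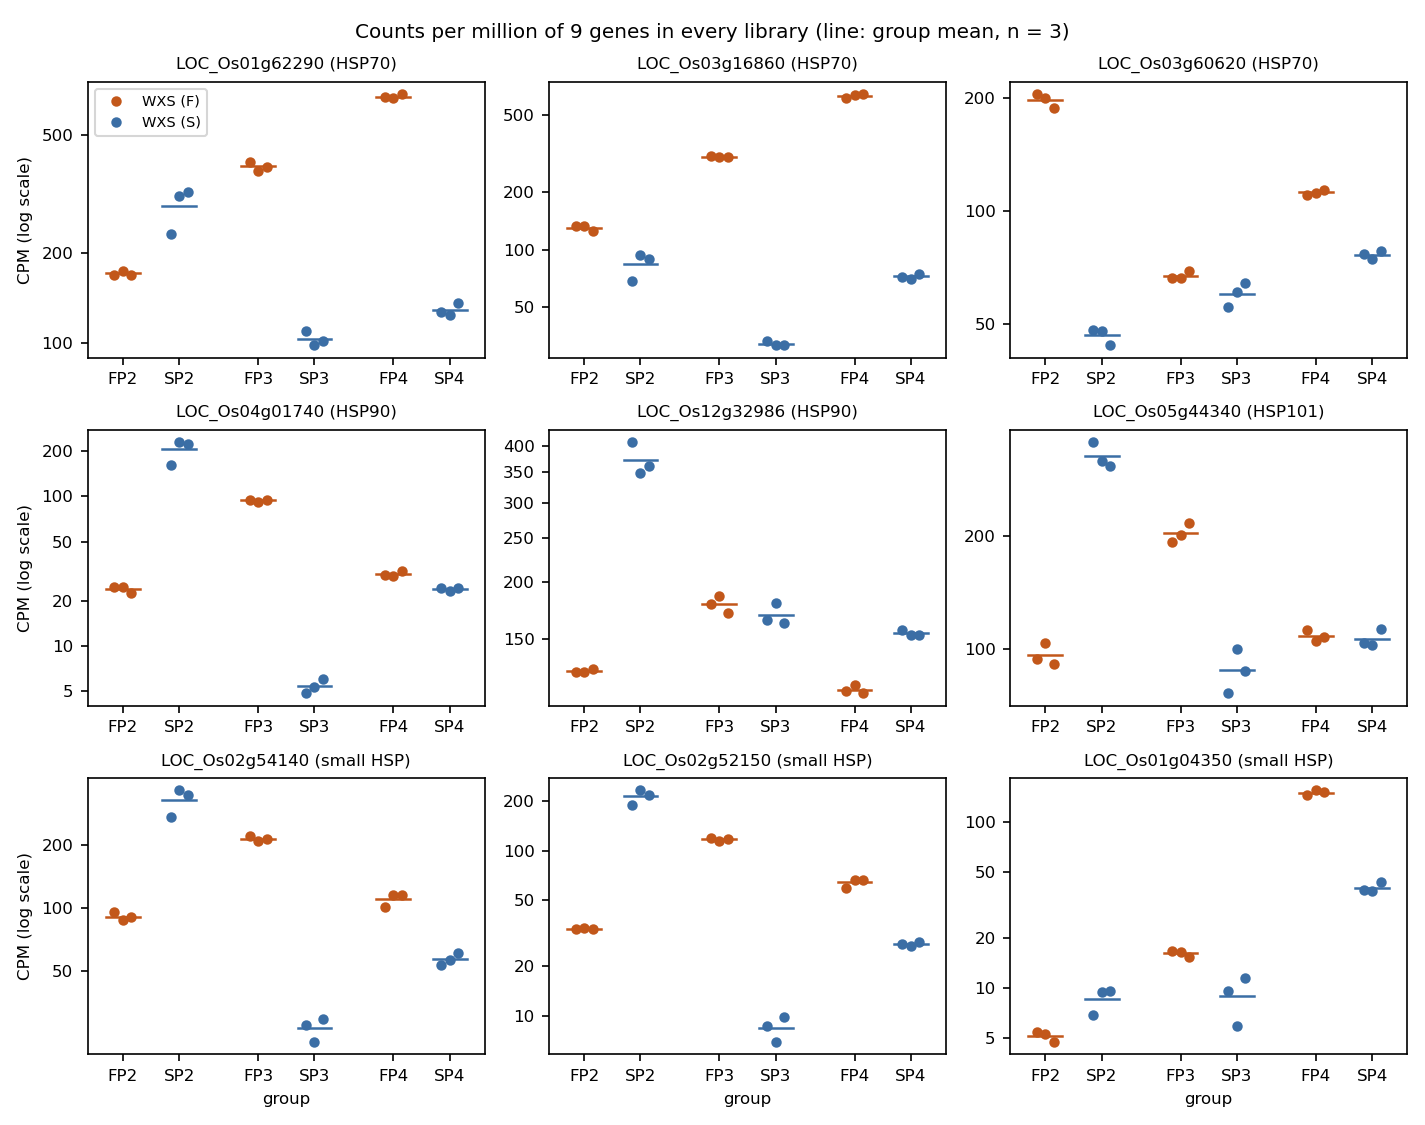
CPM on a logarithmic vertical axis of 3 HSP70, 2 HSP90, 1 HSP101 and 3 small HSP genes in every library, by group (horizontal axis), with WXS (F) in orange left of WXS (S) in blue at each stage; points are libraries and lines are group means of 3 libraries. LOC_Os02g52150 lies at 33.4–34.2 CPM in FP2 and 190.4–232 CPM in SP2, but at 115–119 CPM in FP3 and 6.99–9.79 CPM in SP3.

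The difference between conditions itself differed between stages for most of these genes. A stage-by-condition interaction, tested over all 18 libraries, was found for 25 of 33 tested loci, where 38.2% of all tested genes had one. These were 12 of 15 small HSPs, 6 of 8 HSP70 genes, 4 of 6 HSP90 genes, 2 of 3 tested BiP genes and the HSP101 gene. The BiP gene LOC_Os08g09770 among them passed the count filter only through FP3 and FP4, where it was high. Of the 10 loci that were downregulated in FP2, 9 were upregulated in FP3, which is 90% of the 10 and 47.4% of the 19, and LOC_Os12g32986 was the exception with 0.08 ± 0.08 at P3. Among the 9, LOC_Os04g36750 passed the count filter at P3 only through FP3. Over all coding genes tested at both stages, 8.34% of those called lower in FP2 were called higher in FP3, and 0.617% of genes had both calls. Of the 19 loci upregulated in FP3, 7 were also upregulated in FP4, which is 36.8% of the 19 and 70% of the 10, while 62% of all genes called higher in FP3 and tested at both stages were called higher in FP4.

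Levels changed between stages in both conditions, but P3 was not tested against P2 within a condition. Over the 33 loci tested in the 18 libraries, the lowest group mean was in SP3 for 21, including 12 of the 15 small HSPs, where 16% of all tested genes had their lowest mean in SP3. It was in FP3 for 0 (7.87% of all tested genes) and in SP2 for 1 (23%). The highest group mean was in FP3 for 11 (12.1% of all tested genes), in SP2 for 10 (18.9%), in FP4 for 8 (26.2%) and in FP2 for 1 (16.8%). The mean of LOC_Os04g01740 in SP3 was 0.0262 times its mean in SP2, that of LOC_Os02g52150 was 0.0399 times, and that of LOC_Os02g54140 was 0.0824 times. In fertile panicles the mean of LOC_Os04g01740 went from 24.1 CPM in FP2 to 94.1 CPM in FP3. That of LOC_Os02g52150 went from 33.7 to 117.3 CPM, and that of LOC_Os02g54140 from 90.9 to 213 CPM. For the HSP101 gene and for LOC_Os04g01740, LOC_Os12g32986, LOC_Os02g52150 and LOC_Os02g54140, SP2 held the highest mean of all groups.

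From P2 to P4 within a condition, the loci that were called all rose in fertile panicles and mostly fell in sterile panicles. In FP4 against FP2, 12 of 33 tested loci were upregulated, where 18.9% of all tested genes were called higher, and 0 were called lower by edgeR or by DESeq2 (12% of all tested genes), with 3 lower at an unadjusted P below 0.05 in edgeR and 2 in DESeq2. In SP4 against SP2, 12 of 33 were downregulated, where 10.3% of all tested genes were called lower, and 1 was upregulated, where 16.2% were called higher. The 12 that rose in FP4 against FP2 were 5 small HSPs, 4 HSP70 genes and all 3 tested BiP genes. Of these BiP genes, LOC_Os05g35400 and LOC_Os08g09770 had at least 10 counts only in FP3 and FP4 libraries. They were tested only because they were high there, so their calls are not independent of the count filter. Without TMM factors 4 of these 12 were lost, LOC_Os01g04370, LOC_Os01g08860, LOC_Os05g38530 and the BiP gene LOC_Os02g02410, and LOC_Os03g60620 was called lower (−1.003, adjusted P = 1.68e-07), against −0.82 with them. The 12 that fell in SP4 against SP2 were 7 small HSPs, 2 HSP70 genes, 2 HSP90 genes and the HSP101 gene. Near the fold threshold, LOC_Os05g38530 (HSP70, −1.02) was lost without TMM factors, with at least 50 counts, in the fit of only the 6 libraries compared and without SP2-2, FP2-1, FP2-2, FP2-3, SP3-2 or SP4-2, with values between −0.99 and −0.83. LOC_Os01g04360 (small HSP, −1.07) was lost without TMM factors, SP2-2 or SP2-3, with values between −0.99 and −0.97.

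LOC_Os01g04350 rose at P4 in both conditions, by a log2(fold change) of 4.87 ± 0.21 in FP4 against FP2 and 2.22 ± 0.18 in SP4 against SP2. LOC_Os01g62290 rose by 1.98 ± 0.10 in FP4 against FP2 and fell by 1.16 on the log2 scale in SP4 against SP2 (SE 0.09). The HSP101 gene had 0.17 ± 0.09 in FP4 against FP2 (adjusted P = 0.128) and fell by 1.62 in SP4 against SP2 (SE 0.09). LOC_Os08g09770 had 0 counts in the 3 FP2 libraries and 332 in FP4, at least 115-fold higher when 3 counts over the group are taken as the limit in FP2.

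Some members were not called at any stage. LOC_Os11g47760, an HSP70 gene, was the most abundant of the 34 loci per length, with a mean of 1223 FPKM in the authors' table, against 118.4 FPKM for LOC_Os06g50300, the next highest, and 100.7 FPKM for LOC_Os02g54140. Its FPKM was 1118 ± 27.1 in FP2 and 1492 ± 188 in SP2, 1529 ± 177 in FP3 and 1249 ± 171 in SP3, and 997 ± 79.6 in FP4 and 949 ± 36.1 in SP4 (SD, n = 3 each). In CPM it had 4095, 4069 and 4147 in FP2, against 4838, 5310.5 and 5655 in SP2, with a log2(fold change) of −0.35 ± 0.08. At P3 it had 6159.9, 6096 and 5112 CPM in FP3 and 4824, 4655 and 4023 CPM in SP3, and at P4 4002, 3373 and 4085 CPM in FP4 and 3611, 3608 and 3720.1 CPM in SP4. Its log2(fold changes) were 0.36 ± 0.13 at P3 and 0.08 ± 0.07 at P4, and an interaction was found (adjusted P = 0.0025). LOC_Os12g14070 (HSP70) and LOC_Os09g29840 (HSP90) were likewise never called, with log2(fold changes) between −0.04 and 0.46 and between −0.78 and 0.45. LOC_Os06g50300 had 783, 772 and 747 CPM in FP3, against 455, 427 and 397 CPM in SP3, without overlap but within the fold threshold (0.84 ± 0.09, adjusted P = 0.000647), and 551, 570.1 and 542 CPM in FP4 and 538, 507 and 519 CPM in SP4 (0.10 ± 0.04).

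The HSP90 genes LOC_Os08g39140 and LOC_Os09g30412 had replicates that disagreed. LOC_Os08g39140 had 94.2, 95.8 and 331 CPM in FP2 and 213, 188 and 185 CPM in SP2, and 235, 239 and 215 CPM in FP3 and 349, 91.6 and 65.0 CPM in SP3. A single library stood far above its group at each of these stages, FP2-3 at P2 and SP3-1 at P3. With all libraries its log2(fold change) was −0.16 ± 0.50 at P2 and 0.44 ± 0.60 at P3, while without FP2-3 it was −1.02 (adjusted P = 0.00246) and without SP3-1 it was 1.54 (adjusted P = 0.00253), both past the threshold. At P4 its replicates were close, with 257, 259 and 269 CPM in FP4, against 132, 121 and 130.2 CPM in SP4. Its call there (1.04 ± 0.05, adjusted P = 8.30e-06) lay at the fold threshold and was lost without SP4-2 (0.99), without TMM factors (0.94) and in the fit of all 18 libraries (adjusted P = 0.131).

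LOC_Os09g30412 had 262, 52.1 and 229 CPM in FP2 and 159.6, 362 and 305 CPM in SP2, then 305, 39.6 and 213 CPM in FP3 and 299, 346 and 209 CPM in SP3. The libraries FP2-2 and FP3-2 were far below the others of their groups, and the coefficient of variation was 62.3% in FP2 and 72.4% in FP3. At P4 it had 186, 185 and 196 CPM in FP4 and 223, 217 and 191 CPM in SP4, overlapping groups. Its log2(fold change) was −0.59 ± 0.59, −0.62 ± 0.65 and −0.15 ± 0.07 at P2, P3 and P4, and it was not called. How the authors assigned reads that match several loci is not stated, and the values of both genes are therefore uncertain.

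**Figure D4:**
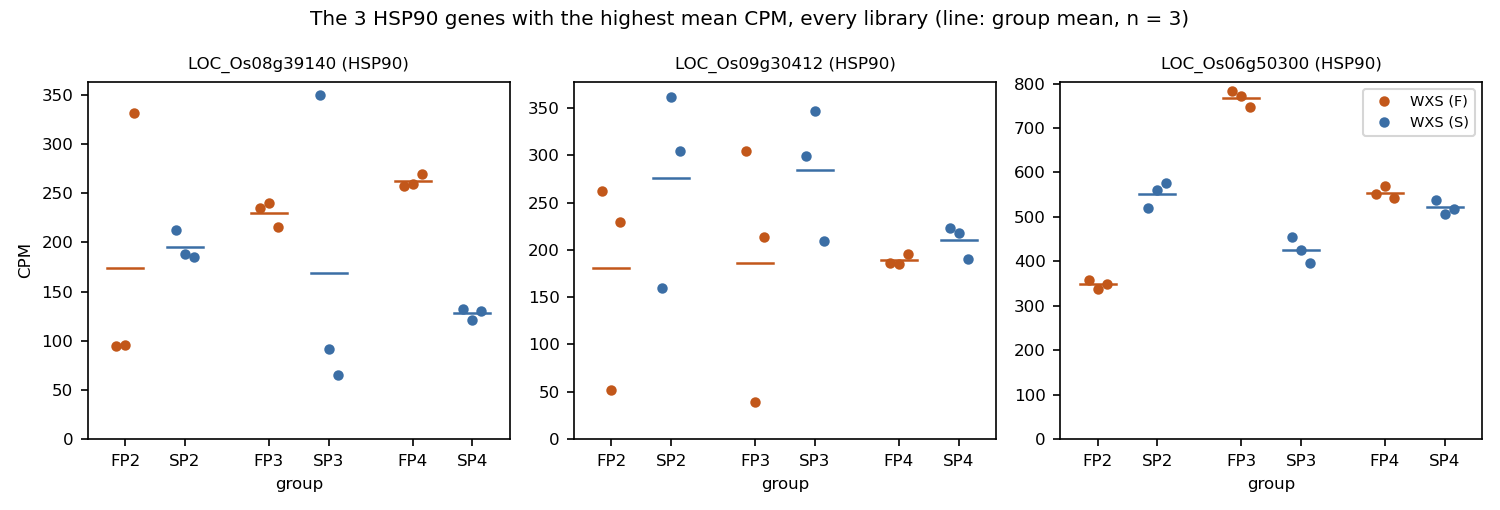
CPM (vertical axes, starting at 0) of the HSP90 genes LOC_Os08g39140, LOC_Os09g30412 and LOC_Os06g50300 in every library, by group (horizontal axes), with WXS (F) in orange left of WXS (S) in blue; points are libraries and lines are group means of 3 libraries. Single libraries of LOC_Os08g39140 reach 331 CPM in FP2 and 349 CPM in SP3, and single libraries of LOC_Os09g30412 drop to 52.1 CPM in FP2 and 39.6 CPM in FP3, whereas LOC_Os06g50300 stays at 339–358 CPM in FP2.

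The small HSP identifiers LOC_Os01g04340 to LOC_Os01g04380 and LOC_Os03g15960 to LOC_Os03g16040 lie next to each other in the numbering and can share reads if their copies are alike, so that values of single members are uncertain. Within the run on LOC_Os01, levels differed widely. LOC_Os01g04350 averaged 25.3 FPKM over the 18 libraries, LOC_Os01g04360 4.11 FPKM, LOC_Os01g04370 2.65 FPKM, LOC_Os01g04380 1.00 FPKM and LOC_Os01g04340 0.0934 FPKM. Within the other run, LOC_Os03g16020 averaged 14.2 FPKM, LOC_Os03g16040 9.27 FPKM, LOC_Os03g16030 0.556 FPKM and LOC_Os03g15960 0.229 FPKM. LOC_Os03g16020 and LOC_Os03g16030 were called higher in FP3 (3.07 ± 0.17 and 3.14 ± 0.43), and LOC_Os03g16040 and LOC_Os03g15960 were not called at any stage with all libraries.

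A few loci were at the limit of detection. LOC_Os05g30480 (BiP) had 21 counts over all 18 libraries, with 13 libraries at 0, and was never tested. LOC_Os01g04340 and LOC_Os03g16880 had 115 counts each over the series. LOC_Os01g04340 passed the filter only in the fit of all 18 libraries, and LOC_Os03g16880 passed it also at P3, where its log2(fold change) was −0.04 ± 0.90. LOC_Os01g04340 was not tested within a stage. It had 35 counts in the FP3 libraries together, against 7 counts in the SP3 libraries, a ratio of 4.67 with a 95% counting interval of 2.04 to 12.5, and the libraries did not overlap. Its interaction had an adjusted P of 0.111 and was called only without SP4-1. LOC_Os03g16880 had 27 counts in FP3 and 28 in SP3, and a difference was not detectable at this depth.

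Other genes of the heat response were followed as lists drawn up from general knowledge. Heat shock factors are a family of transcription factors, and not all of them switch on chaperone genes. The role of each listed locus was not tested. Of 24 tested heat shock factor loci, 2 were called higher and 5 lower in FP2, 8 higher and 3 lower in FP3, and 7 higher and 1 lower in FP4. Over all tested genes, 10.3% were called higher and 7.76% lower in FP2, 14.9% and 6.65% in FP3, and 15.7% and 6.78% in FP4. Of 13 loci listed as chaperones of mitochondria and plastids, 3 were lower in FP2 and 2 higher in FP3, and at P4 all 13 had log2(fold changes) between −0.60 and 0.86, within the fold threshold. Of 6 loci listed for protein folding in the endoplasmic reticulum, 1 was higher and 1 lower in FP2, 2 were higher in FP3 and 1 was lower in FP4. With so few loci, counts such as 2 of 24 heat shock factors higher in FP2 and 2 of 13 organellar chaperones higher in FP3 lay near the shares of all tested genes. OsHsfC1a (LOC_Os01g43590), the only heat shock factor whose name the sources used here pair with its locus, had 1.70, 2.30 and 1.93 CPM in FP4, against 0.228, 0.631 and 0.439 CPM in SP4. Its groups did not overlap, with a log2(fold change) of 2.19 ± 0.38 (adjusted P = 0.00337), while it had 0.25 ± 0.39 at P2 and 0.59 ± 0.29 at P3 and was called at neither.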

How the data were processed

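Strand-specific, rRNA-depleted RNA-seq libraries of young WXS panicles were analysed from the coding-gene tables of the series. Per the methods of the study, the authors used HISAT2 to align filtered reads to the rice genome (MSU v7.0), and the submitters' processing notes also name StringTie 1.3.1. The tool that counted reads per gene, and how reads with several matches were treated, are not given in the sources used here. The deposited counts are whole numbers without normalization. The authors' FPKM values, scaled to gene length and library size, were used only to compare levels between genes. All columns matched a library (0 did not).

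Counts of all genes were fitted with edgeR 4.0.16 (quasi-likelihood, TMM, at least 10 counts in at least 3 libraries of the fit) in R 4.3.3. WXS (F) was tested against WXS (S) within each stage over 6 libraries. The stage-by-condition interaction, FP4 against FP2 and SP4 against SP2 were tested in a fit of all 18 libraries. P values were adjusted by Benjamini-Hochberg over all genes tested, and SE values are the fold change divided by the root of the F statistic. The method was tested on simulated counts. The simulation gave all genes the same spread between libraries, so it does not cover genes whose replicates disagree. Counting intervals are exact 95% intervals of the ratio of summed counts. Coding totals lay between 30577833 and 52222861 counts. Tables and figures were made with Python 3.11.15, pandas 2.3.3, numpy 2.4.6, scipy 1.17.1 and matplotlib 3.10.9.

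The 34 loci, the lists and the tests were chosen with earlier results of these data known. Values per library are given for the 2 genes of each class with the highest mean CPM and for up to 3 genes of each class with the smallest P among those called at each stage. Other genes named were chosen after their values were seen. Heat shock factor, other chaperone and marker lists came from general knowledge of rice loci and are not annotated in the tables, nor are the classes of the 34 loci, which follow the order of the list. Alternatives were DESeq2 1.42.0, no TMM factors, upper-quartile factors, no filter, at least 50 counts, an adjusted P below 0.01, no minimum fold change, the replicate number as a block, leaving out genes over 1% of a library, another set of libraries in the fit, and leaving out each library. The circRNA and lncRNA tables were not used here. Of the 34 loci, 0 matched the reference gene table, and no sequences are shown.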

Additional observations from a re-analysis of the deposited data

Results flagged for a closer look

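The difference between WXS (F) and WXS (S) differed between stages for 25 loci, by the interaction test of edgeR over all 18 libraries. The values below are the log2(fold change) at P3 minus that at P2, so that a positive value means that WXS (F) stood higher relative to WXS (S) at P3 than at P2.

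Among the small HSPs this difference was 7.5 for LOC_Os03g14180, 6.78 for LOC_Os04g36750, 6.44 for LOC_Os02g52150, 6.42 for LOC_Os01g08860, 6.29 for LOC_Os06g14240 and 4.83 for LOC_Os02g54140. It was 5.43 for LOC_Os01g04380, 3.98 for LOC_Os01g04360, 3.79 for LOC_Os03g16030, 3.78 for LOC_Os01g04370, 3.56 for LOC_Os03g16020 and 1.59 for LOC_Os01g04350. The HSP101 gene LOC_Os05g44340 had 2.97. Among the HSP90 genes LOC_Os04g01740 had 7.22, LOC_Os12g32986 1.63, LOC_Os06g50300 1.51 and LOC_Os09g29840 1.25. Among the HSP70 genes LOC_Os03g16920 had 4.10, LOC_Os05g38530 3.03, LOC_Os01g62290 2.68, LOC_Os03g16860 2.60 and LOC_Os11g47760 0.72.

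LOC_Os03g60620, an HSP70 gene, was the only one of the 25 with a negative value, −1.93, since it was higher in FP2 than in SP2 and close between FP3 and SP3. Of the BiP genes, LOC_Os02g02410 had 1.38 and LOC_Os08g09770 had 7.99. All 3 FP2 libraries of LOC_Os08g09770 were at 0, so that its fitted value depends on the prior count and is no bound.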

How the results depend on the processing

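Called loci kept their direction under every alternative in which they were tested. Counts of called loci were 11, 19, 11, 25, 12 and 13 for FP2 against SP2, FP3 against SP3, FP4 against SP4, the interaction, FP4 against FP2 and SP4 against SP2. With no minimum fold change they were 17 in FP2 against SP2, 20 in FP4 against SP4 and 20 in FP4 against FP2, and under the other alternatives each stayed within 1.5 times. When each library was left out in turn the ranges were 11–12, 16–21, 9–13, 25–27, 11–13 and 11–14. The 3 loci lost without an FP3 library (LOC_Os01g04380, LOC_Os03g16030 and LOC_Os08g09770) and the 2 lost without an FP4 library (LOC_Os05g35400 and LOC_Os08g09770) no longer passed the count filter. Within a stage, deviations of same-numbered WXS (F) and WXS (S) libraries from their group means correlated between −0.03 and 0.05. No shift shared by replicate number was thus seen over all genes, but this cannot tell whether libraries were paired by plant or harvest. In fits with a replicate block the counts were 11, 18, 11, 25, 12 and 13. Without TMM factors the median log2(fold change) of all genes was 0.18 at P2 and −0.10 at P4, against 0.04 and 0.00 with them.

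Reversals were found only for values that were not called, and the cause was not tested. At P2, values with each library left out in turn lay between −0.0044 and 0.20 for LOC_Os02g02410 (below 0 without SP2-3), between −1.02 and 0.15 for LOC_Os08g39140 (above 0 without FP2-1 or FP2-2) and between −0.28 and 0.0733 for LOC_Os01g04380 (above 0 without SP2-1 or FP2-1), which had 0.0243 without TMM factors. At P3 they lay between −0.63 and 0.0836 for LOC_Os03g16880 (above 0 without FP3-3), which had 0.29 with the replicate block, and between −0.30 and 0.34 for LOC_Os03g16040 (below 0 without SP3-1). At P4 they lay between −0.0784 and 0.0026 for LOC_Os12g14070 (above 0 without SP4-1), between −0.0482 and 0.24 for LOC_Os09g29840 (below 0 without SP4-2), between −0.12 and 0.0555 for LOC_Os03g16040 (above 0 without SP4-1 or FP4-1) and between −0.0014 and 0.081 for LOC_Os05g44340 (below 0 without SP4-2), which had −0.0004 with upper-quartile factors. Without TMM factors P4 values were −0.0701 for LOC_Os05g44340, −0.0291 for LOC_Os11g47760 and −0.0095 for LOC_Os06g50300. Values of loci with few counts are limited by depth.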

Other observations

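Some heat shock factor loci of the list were lower in FP2 and higher in FP3, as many of the chaperones were. LOC_Os03g53340, on the list but with no name in the tables, had 7.58, 7.5 and 6.15 CPM in FP2, against 35.0, 36.8 and 23.1 CPM in SP2, a log2(fold change) of −2.15 ± 0.21 (adjusted P = 0.000544). At P3 it had 23.4, 15.6 and 19.0 CPM in FP3, against 0.328, 0.254 and 0.168 CPM in SP3, a log2(fold change) of 6.25 ± 0.30 (adjusted P = 3.74e-05). LOC_Os10g28340 had a log2(fold change) of −1.19 ± 0.07 in FP2 against SP2 and of 2.44 ± 0.08 in FP3 against SP3, with 111, 112 and 110.3 CPM in FP3 and 19.3, 22.0 and 20.2 CPM in SP3.

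LOC_Os09g28354 was higher in WXS (F) at each stage, with log2(fold changes) of 3.59 ± 0.33 at P2, 8.85 ± 0.40 at P3 and 4.27 ± 0.12 at P4. It had 16.8, 15.5 and 14.5 CPM in FP3, against 0.0410, 0 and 0.0420 CPM in SP3, from 2, 0 and 2 counts in the SP3 libraries, so that the size of its fold change at P3 is uncertain. LOC_Os09g35790 had 26.5, 23.7 and 27.0 CPM in FP2, against 115.6, 115.7 and 115.5 CPM in SP2, a log2(fold change) of −2.15 ± 0.07. It turned at P3, with a log2(fold change) of 2.75 ± 0.27 (adjusted P = 0.00053), and had 0.78 ± 0.06 at P4, within the fold threshold. These loci were among those with the smallest P of the list at a stage, and the counts of the list stand with the chaperones above.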
